A study of Mus musculus with 4 samples.

Results

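The Plac8+ monocytes and monocyte-derived cells were 435 of the 27800 cell barcodes that passed the limits on quality, out of 30793 in the files. Their members were chosen by raw counts of unique molecular identifiers (UMIs), each of which stands for 1 captured transcript. A member had at least 2 UMIs of Plac8, at least 3 over Ly6c2, Chil3 and Thbs1, at least 1 of Lst1, fewer than 10 over C1qa, C1qb and C1qc, and none of Cd3e or Cd79a, in a barcode with at least 200 detected genes and at most 10% mitochondrial UMIs. These genes define the members, so their levels are described here and support nothing. CD45+ leukocytes had been sorted from both hindpaws of perfused mice after collagenase digestion and profiled with droplet 3' single-cell RNA-seq. Male Lepr db/db mice on the C57BLKS/J background, which lack the signalling form of the leptin receptor and become obese and diabetic (DB), were compared with Lepr WT/WT littermates (WT) at 12 weeks (labelled young) and 21 weeks (labelled aged). Obesity and high glucose come together in this model and cannot be told apart. Each of the 4 conditions was 1 library of cells pooled from 2 to 3 mice. No difference between conditions therefore had a replicate check, no test between conditions was made, and all intervals are 95% intervals for counting error only, exact for levels, their ratios and shares, and by a normal approximation on the log scale for ratios of shares. Where 4 values are given, they stand in the order WT then DB at 12 weeks and WT then DB at 21 weeks. The libraries held 5998, 7463, 8208 and 9124 barcodes with 47851794, 57025899, 69626521 and 54989592 UMIs, of which 5271, 6552, 7270 and 8707 barcodes were kept and 105, 68, 213 and 49 were members. Of the cell barcodes, 154 were found in both 21-week libraries and 6 to 41 in the other pairs. Of the members, 7 had a barcode also present in another library, and none was a member in both.

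Monocytes are made in the bone marrow, leave it through the chemokine receptor Ccr2 and circulate in the blood. Classical monocytes carry high Ly6c and Ccr2, whereas non-classical monocytes patrol the vessel wall, carry less Ly6c and depend on the transcription factor Nr4a1. In skin and other barrier tissues, classical monocytes enter continuously, lose Ly6c and Plac8 and acquire MHC class II and macrophage genes. They also respond strongly to type I interferon, to bacterial products and to oxidative stress. Plac8 encodes a small cysteine-rich protein of myeloid and lymphoid cells. Chil3 encodes the chitinase-like protein Ym1, and Thbs1 encodes the matrix protein thrombospondin 1.

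Of the 5 marker genes given for these cells, 4 belong to the rule and are described only, so the label rests on Ifitm3 and on other monocyte genes. On the GRCm38 assembly (GENCODE vM21) the marker genes lie at Plac8 (chr5:100553725-100572245, minus strand), Ly6c2 (chr15:75108158-75111970, minus strand), Chil3 (chr3:106147554-106167564, minus strand), Thbs1 (chr2:118111876-118127133, plus strand) and Ifitm3 (chr7:141009586-141010770, minus strand). Counts per gene from this 3' assay are given relative to all UMIs of the members of a library (CPM, counts per 1000000), and the members held 1137076, 551096, 2139659 and 454058 UMIs. Plac8 stood at 2711, 1368, 2154 and 720.2 CPM. Ly6c2, which encodes the Ly6C surface protein, stood at 1779, 777, 902 and 451 CPM. Both were lower in DB than in WT at each age. Chil3 stood at 169, 1586, 256 and 3332 CPM and Thbs1 at 467, 1535, 1479 and 2768 CPM. The order was the opposite, since both were higher in the DB library at each age. Ifitm3, an interferon-induced membrane protein that the rule did not use, stood at 2193, 1831, 2458 and 1251 CPM, against 298, 328, 230.1 and 214 CPM in the C1q-high macrophages of the same libraries. Ccr2 was at 996, 896, 940.3 and 656 CPM and Csf1r, the receptor for the macrophage growth factor CSF1, at 284, 338, 299 and 240.1 CPM. All 12 genes of a classical monocyte list had UMIs in every library, and 11 of them lie outside the rule. The summed level was 8875, 10058, 8728 and 11122 CPM. It takes in Ly6c2, a gene of the rule, so the sum is described only.

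**Figure D1:**
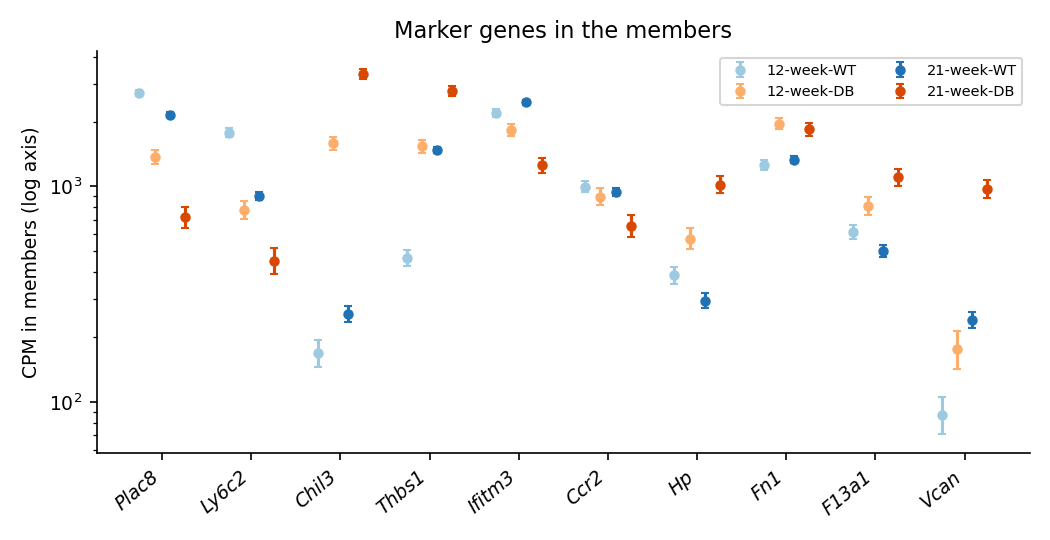
Level of 10 marker genes (horizontal axis) in the members of each library, in CPM on a log axis; points are sums over members and bars exact 95% Poisson intervals for counting error. Plac8 and Ly6c2 are lower and Chil3, Hp and Vcan higher in the DB library at each age.

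Members met the condition on Ly6c2, Chil3 and Thbs1 through different genes in the 4 libraries. At least 3 UMIs of Ly6c2 alone were found in 90.5%, 61.8%, 70.9% and 55.1% of members, at least 3 of Chil3 in 24.8%, 79.4%, 34.3% and 91.8%, and at least 3 of Thbs1 in 32.4%, 30.9%, 49.3% and 57.1%. WT members thus qualified mostly through Ly6c2 and DB members mostly through Chil3. When the condition on these 3 genes was not applied, the members numbered 165, 90, 314 and 54 and Chil3 was at 119, 1148, 179 and 3026 CPM. Chil3 has a close copy, Chil4, so its count is uncertain to the extent that reads fit both. Just inside the threshold on Plac8, 34 members had exactly 2 UMIs and carried Ifitm3 at 1109 CPM and H2-Ab1 at 2881 CPM. Just outside it, 75 barcodes with 1 UMI met all other conditions and had 824 and 2872 CPM of the same genes. The threshold on the C1q genes cut few cells, as 7 members, all in 21-week-WT, had 5 to 9 UMIs and 2 barcodes just outside had 10 to 14. C1q transcripts were not detected in 48, 38, 128 and 39 members.

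Some members stood apart by granulocyte genes. In all, 28 members (15, 5, 7 and 1 by library) had at least 100 UMIs of the neutrophil genes S100a8 and S100a9 or at least 10 of the progenitor granule genes Mpo, Elane, Prtn3 and Ctsg, limits chosen after these values were seen. They were few but held 23.9%, 9.99%, 4.54% and 2.58% of all member UMIs, more in the WT than in the DB library at each age. Camp and Ngp, which encode granule proteins of developing neutrophils, were at 3038, 2439, 2402 and 0 and 2369, 2349.9, 1398 and 0 CPM, and these members held 99.9% of the Camp UMIs in 12-week-WT and 99.9% in 21-week-WT. Over the 10 genes of a neutrophil list the summed level was 21959.8, 17411, 9589 and 2548 CPM, with S100a9 the most abundant in every library but 21-week-DB, where S100a8 was, and with Ly6g at 0 in both 21-week libraries. Over the 6 genes of a bone marrow progenitor list it was 2462, 63.5, 92.1 and 77.1 CPM. Only Prtn3 of these 6 had UMIs in 21-week-DB. The 6 cycling genes summed to 618, 92.5, 94.9 and 48.5 CPM, highest in 12-week-WT. The rule left out barcodes with Cd3e or Cd79a, so low levels of T and B cell genes were largely set by it. T cell genes summed to 15.8, 63.5, 36.5 and 19.8 CPM and B cell genes to 169.7, 118, 158 and 41.8 CPM (mostly Ighm). The rule used no natural killer or stromal gene, and natural killer genes summed to 137, 10.9, 39.7 and 126 CPM and stromal genes to 9.67, 7.26, 11.7 and 6.61 CPM. Mast cell genes summed to 267, 357, 18.7 and 33 CPM, but 1 member held 83.9% of their UMIs in 12-week-WT and another 81.7% of those in 12-week-DB. Without the highest member of each library the sums were 43.3, 65.8, 16.9 and 26.9 CPM, from 49, 36, 36 and 12 UMIs. For natural killer genes they were then 50.7, 7.34, 9.92 and 4.49 CPM. Genes of 2 related lineages were not low. Over the 12 genes of a type 2 dendritic cell list, class II genes among them, the sum was 4598, 2355, 10406 and 438 CPM with Cd74 the most abundant in every library, and Cd209a, Mgl2, Zbtb46 and Ccr7 at 0 in 21-week-DB. Over the 12 of a macrophage list it was 1211, 1720.2, 1657 and 3079 CPM, with Apoe the most abundant in every library. Without Apoe it was 291, 307, 368 and 183 CPM, so that 21-week-DB was the highest library with Apoe and the lowest without it. The list includes C1qa, C1qb and C1qc, whose UMIs the rule limited, so both sums and their order were partly set by it.

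In 21-week-DB, S100a8 was found in most members. A UMI of S100a8 was found in 75.5% of its members at a median depth of 8892 UMIs, against 27.6%, 32.4% and 11.7% of members in the other libraries. Among T cells of the same library, which should lack the gene, the share was 2.71% at a median of 5420.0 UMIs, and among C1q-high macrophages it was 50.1% at 9296. T cells were thus the lowest of the 3 and the members the highest. What free RNA adds to these shares was not tested. The median member of 21-week-DB had 4 UMIs of S100a8 and S100a9 together, whereas the median was 0 in the other 3 libraries.

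The share of members among all barcodes kept was taken next. It counts cells past the thresholds of the rule. With no condition on Plac8, which was lower in DB, the cells numbered 169, 136, 388 and 105. Fewer such cells and less Plac8 in each cell therefore cannot be told apart. Members were 105 of 5271 barcodes in 12-week-WT, a share of 1.99% (Clopper-Pearson 95% interval 1.63 to 2.41%). In 12-week-DB they were 68 of 6552, or 1.04% (0.807 to 1.31%). At 21 weeks they were 213 of 7270 in WT, or 2.93% (2.55 to 3.34%), and 49 of 8707 in DB, or 0.563% (0.417 to 0.743%). The DB library had the lower share at each age, and no pair of intervals within an age overlapped. The DB over WT ratio of shares was 0.521 (95% interval 0.385 to 0.705) at 12 weeks and 0.192 (95% interval 0.141 to 0.262) at 21 weeks. With age the share was 1.471 (95% interval 1.167 to 1.853) times its 12-week value in WT and 0.542 (95% interval 0.376 to 0.782) times in DB. A share is relative to the other cells of the library, so fewer members and more of other cells cannot be told apart. T cells, for example, numbered 803, 1647, 1695 and 2255. The median member had 9010, 6977, 9599 and 8892 UMIs, compared with 7390.0, 7194, 8000.5 and 5355 for all barcodes kept. Since the rule needs raw UMIs, shallower cells meet it less often, so barcodes were also thinned to 2000 UMIs each, leaving out those with fewer (354, 496, 596 and 1467, among them 1 member, of 21-week-WT). Members then numbered 58, 30, 84 and 11, or 1.18%, 0.495%, 1.26% and 0.152% of barcodes. DB stayed below WT at each age, while the ratio of 21 over 12 weeks in WT was 1.067. At 2000 UMIs, however, the condition of at least 2 Plac8 UMIs weighs more on cells with less Plac8. Plac8 was at 2711, 1368, 2154 and 720.2 CPM, so the thinned shares follow its level too and do not check the DB difference. Depth and the levels of the rule's genes cannot be told apart in the ratio of the WT libraries either.

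**Figure D2:**
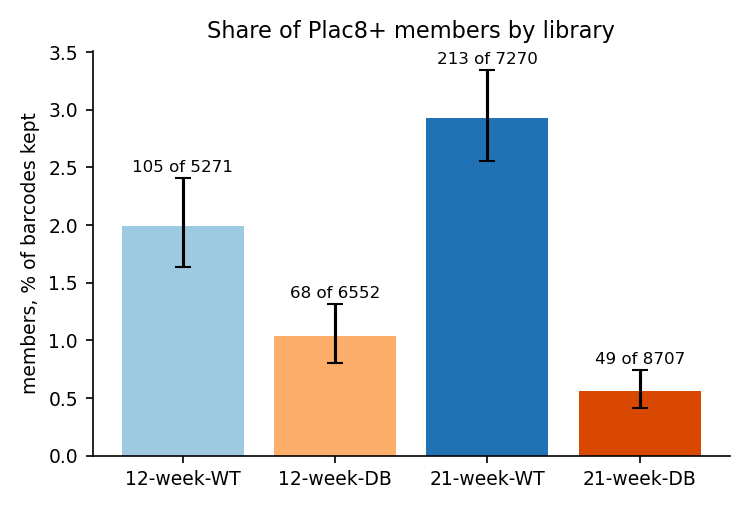
Members as a percentage of the barcodes kept in each library (bars), with exact 95% binomial intervals and the counts printed above. The DB bar is below the WT bar at each age, most clearly at 21 weeks (0.563% against 2.93%).

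Gene expression of the members was then compared between DB and WT. Genes were compared where both libraries together held at least 50 UMIs and the higher one at least 100 CPM, the genes of the rule left out, and a ratio of at least 2-fold was counted. A gene that reached 100 CPM in the higher library only had its direction set by this limit. At 12 weeks 37 of 1604 genes (2.31%) were at least 2-fold higher in DB and 36 (2.24%) at least 2-fold lower. At 21 weeks 67 of 1494 (4.48%) were higher and 83 (5.56%) lower. The median log2 ratio over all compared genes was 0.06 at 12 weeks and 0.01 at 21 weeks. No library is shared by the contrasts at the 2 ages. Of the genes higher in DB, 10 were past 2-fold at both ages, which is 27% of the 12-week and 14.9% of the 21-week genes, and of those lower, 9 were (25% and 10.8%). The 10 were Areg, Clec4d, Filip1l, Fpr2, Hmox1, Idh1, Pla2g7, Slc7a11, Slpi and Vcan. The 9 were Ccl2, Cenpa, H2-Eb1, Ifi27l2a, Irf7, Ms4a4c, Rnf213, Tuba1b and Tubb5. Those of them outside the gene lists were chosen after their values were seen. With 49 to 213 members in a library, 1 cell can decide a gene, so each gene was also compared without the member that held most of its UMIs in each library. The higher genes that then stayed past 2-fold at both ages were 7 of 10 (not Filip1l, Idh1 and Slpi), and the lower ones were 8 of 9 (not Tubb5). Without the 28 members high in granulocyte genes they were 7 (not Filip1l, Idh1 and Vcan) and 9. The conditions of the rule bore on these calls as well. When the condition on Ly6c2, Chil3 and Thbs1 was not applied, 7 of the higher and 7 of the lower genes stayed past 2-fold at both ages. When that on Plac8 was not applied, so that cells without Plac8 came in, 4 higher genes (Areg, Hmox1, Pla2g7 and Vcan) and 4 lower ones (Cenpa, Ifi27l2a, Irf7 and Rnf213) did. Over the genes of the lists and those named here, 229 pairs of a gene and a contrast were past 2-fold, of which 192 stayed so without the first condition and 155 without the second. None turned without the first, and 7 turned without the second (Ccl2, Lyz1 and Tubb5 in DB over WT at 21 weeks, Cxcl1 with age in both genotypes, and Ctla2a and Lmna with age in DB).

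**Figure D3:**
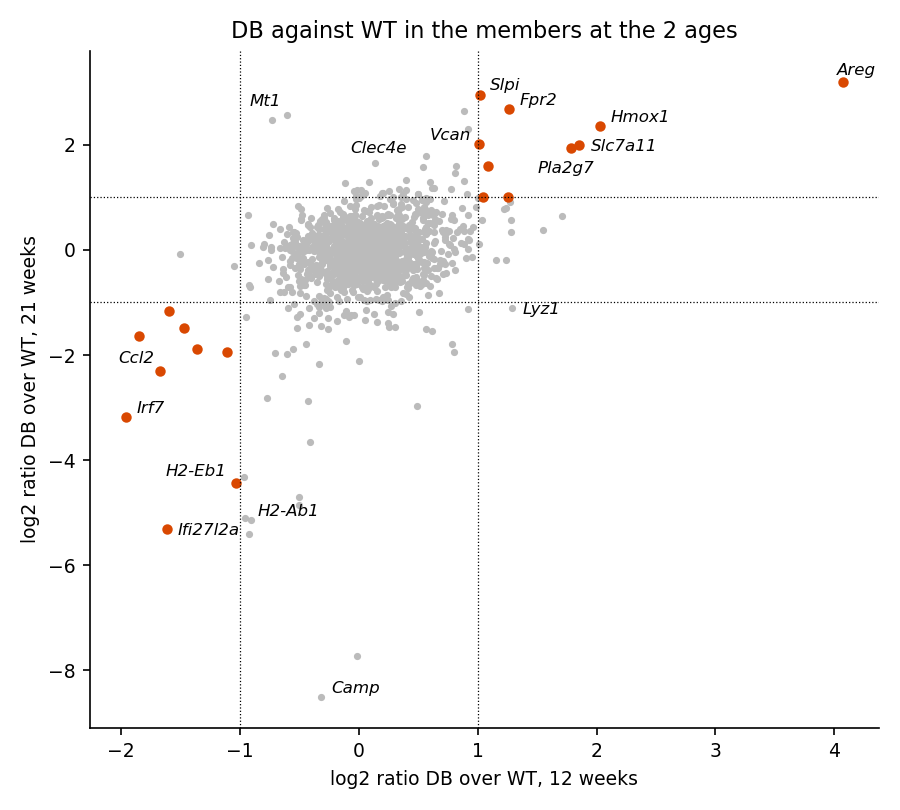
Each point is a gene compared at both ages, with its log2 ratio of DB over WT at 12 weeks (horizontal axis) and at 21 weeks (vertical axis); dotted lines mark 2-fold and dark orange points are past it in 1 direction at both ages. Areg, Hmox1 and Slc7a11 lie at the upper right, Ifi27l2a and Irf7 at the lower left, and H2-Ab1 and Camp are far lower at 21 weeks than at 12.

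Interferon-stimulated genes, which encode antiviral effectors and their regulators, were low in the DB members of 21 weeks. Ifi27l2a was at 1404, 459, 1401 and 35.2 CPM, so it was high in both WT libraries and lowest in 21-week-DB. Its log2 ratio of DB over WT was -1.61 (95% interval -1.81 to -1.42) at 12 weeks and -5.31 (95% interval -6.12 to -4.61) at 21 weeks. Irf7, a transcription factor that amplifies the interferon response, was at 106, 27.2, 139.7 and 15.4 CPM, with ratios of -1.96 (95% interval -2.84 to -1.18) and -3.18 (95% interval -4.51 to -2.12). Rsad2, the antiviral enzyme viperin, was at 66.8, 20, 140.2 and 2.2 CPM and had 76, 11, 300 and 1 UMIs, so its level in 21-week-DB rests on 1 UMI and its ratio of -5.99 had an interval of -11.30 to -3.50. Isg15, a ubiquitin-like modifier, was at 52.8, 27.2, 105 and 19.8 CPM. Bst2, which tethers virions, was at 130.2, 76.2, 124 and 17.6 CPM. Each of these genes was lowest in 21-week-DB. Of the 17 genes of the list, 6 met the limits at 12 weeks, of which 2 were at least 2-fold lower in DB and 0 higher (median log2 ratio -0.68, all genes 0.06). At 21 weeks 7 met them and all 7 were at least 2-fold lower (median -2.81, all genes 0.01). Of these 7, only Ifi204 passed 100 CPM in 21-week-DB (152 CPM). The others met the limits through 21-week-WT alone, so their direction was set and the count and median describe only. Over all 17 genes without limits the sum was 2513, 1112, 2823 and 295 CPM, and without the most abundant gene of each library 1109, 653, 1422 and 143 CPM. The interferon-induced transmembrane genes differed from this list. Ifitm3 had a log2 ratio of -0.97 at 21 weeks, Ifitm2 of 0.43 and Ifitm6 of 0.31, and none of these 3, the members of their list that met the limits, was past 2-fold at either age. In the C1q-high macrophages Ifi27l2a was at 629, 159, 456 and 172 CPM, also lower in DB at both ages, and in type 2 dendritic cells at 185, 55.3, 189.8 and 20.8 CPM. Isg15 in those dendritic cells was higher in DB than in WT at 21 weeks (55.8 against 19 CPM).

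The upstream sequences of Rsad2, Isg15 and Bst2 are shown because these genes were low together in 21-week-DB. That of Ifit3, also of the list, is shown with them. Ifit3 had no UMI in 21-week-DB, but it did not meet the limits at 21 weeks, so it has no ratio. Interferon-stimulated response elements, the DNA sites of the interferon response, were searched as GAAA, any 2 bases and GAAA again, on both strands of the 250 bases before each start site in the RefSeq promoter table (build GRCm38.p6). The letters were found in 2.98% of all 32851 windows and in the windows of 6 of the 12 list genes the table held, Ifit1, Ifit3, Isg15, Rsad2, Cxcl10 and Bst2. The last 160 bases before the start are printed 5' to 3' on the strand of the gene, with matches in capitals. A match is a run of letters and not a measured site.
Rsad2, chr12:26456453-26456612, minus strand: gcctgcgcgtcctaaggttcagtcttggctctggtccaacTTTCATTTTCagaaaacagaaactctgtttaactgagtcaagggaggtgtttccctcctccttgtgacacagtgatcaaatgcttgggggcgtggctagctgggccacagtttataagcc
Isg15, chr4:156200819-156200978, minus strand: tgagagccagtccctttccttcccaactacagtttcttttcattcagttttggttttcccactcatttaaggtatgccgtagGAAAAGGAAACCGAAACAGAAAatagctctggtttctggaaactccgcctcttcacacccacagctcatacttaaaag
Ifit3, chr19:34583369-34583528, plus strand: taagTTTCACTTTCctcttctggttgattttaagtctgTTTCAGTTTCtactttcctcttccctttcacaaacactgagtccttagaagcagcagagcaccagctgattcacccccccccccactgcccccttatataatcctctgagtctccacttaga
Bst2, chr8:71537473-71537632, minus strand: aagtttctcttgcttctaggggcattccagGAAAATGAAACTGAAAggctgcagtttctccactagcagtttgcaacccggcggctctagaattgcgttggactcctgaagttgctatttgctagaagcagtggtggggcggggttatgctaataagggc
Isg15 held 3 overlapping matches on its own strand and Bst2 held 2, whereas the match of Rsad2 and both of Ifit3 were on the other strand.

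MHC class II genes, through which antigen is shown to CD4+ T cells, differed most between the 21-week libraries. H2-Ab1 (chr17:34257689-34269419, plus strand), the beta chain of I-A, was at 720.3, 372, 1813 and 52.9 CPM. H2-Aa, its alpha chain, was at 1149, 606, 2720.1 and 63.9 CPM, and Cd74, the invariant chain that guides class II molecules to the endosome, at 1975, 1011, 4690.0 and 236 CPM. In all 3 genes 21-week-WT was the highest library and 21-week-DB the lowest. The log2 ratio of DB over WT of H2-Ab1 was -0.95 (95% interval -1.18 to -0.73) at 12 weeks and -5.10 (95% interval -5.74 to -4.52) at 21 weeks. The size of these ratios depended on the conditions of the rule. Without the condition on Ly6c2, Chil3 and Thbs1 the ratios of H2-Ab1 were -0.74 and -2.83, with 1575, 946, 2713 and 381 CPM. Without the condition on Plac8 they were -0.22 and -1.90, with 1507, 1298, 2835 and 757 CPM, so 21-week-DB stayed the lowest library and the 21-week difference was much smaller. For Cd74 the ratio with all conditions was -0.97 (95% interval -1.10 to -0.83) and -4.31 (95% interval -4.60 to -4.04). Of the 11 class II genes, 6 met the limits at 21 weeks and all 6 (H2-Aa, H2-Ab1, H2-Eb1, Cd74, H2-DMa and H2-DMb1) were at least 2-fold lower in DB (median -4.76, all genes 0.01). At 12 weeks 1 of 6, H2-Eb1, was (median -0.94). Genes under 100 CPM in 21-week-DB, such as H2-Aa and H2-Ab1, met the 21-week limits through WT alone, so their direction was set. Over all 11 genes without limits the sum was 4782, 2502, 10974 and 537 CPM. Without the members high in granulocyte genes the 12-week ratio of H2-Ab1 was -1.17, past 2-fold. H2-DMa and H2-DMb1, which load peptides, had ratios of -1.88 and -5.15 at 21 weeks. In members below the class II threshold described further on, H2-Ab1 had ratios of -0.48 at 12 weeks and -3.13 at 21 weeks. Those members were chosen by their H2-Ab1 level, so these ratios are values only and check nothing. Type 2 dendritic cells, which hold much class II, had H2-Ab1 at 8593, 7385, 9138 and 6644 CPM and C1q-high macrophages at 1833, 1411, 2813 and 710.4 CPM. The DB over WT ratio at 21 weeks was -1.99 in the macrophages. The dendritic cells had been chosen by their class II UMIs, so no ratio is drawn from them. T cells, as a measure of free RNA and mixed droplets, had H2-Ab1 at 1249, 794, 1237 and 179 CPM, which was lowest in 21-week-DB too. The part of such transcripts in the members' difference was not tested. RNA of the kind held by the whole library was subtracted in proportion to mast cell UMIs among the members. As 1 member held 85.1% of these UMIs in 12-week-WT and another 94.4% of those in 12-week-DB, the member with most of them was left out of each library, and the ratio of H2-Ab1 was then -0.94 at 12 weeks and -5.19 at 21 weeks.

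Class II promoters hold a Y box, an inverted CCAAT sequence that binds NF-Y. The Y box was searched as CTGATTGG on both strands of the same windows, and 3.83% of the 32851 windows held it. Of the 8 class II list genes in the table, 4 did (H2-Aa, H2-Eb1, H2-Eb2 and H2-Oa). The last 160 bases before the start of both of them that were past 2-fold are shown, with the Y box in capitals, since the genes were low together in 21-week-DB.
H2-Aa, chr17:34287824-34287983, minus strand: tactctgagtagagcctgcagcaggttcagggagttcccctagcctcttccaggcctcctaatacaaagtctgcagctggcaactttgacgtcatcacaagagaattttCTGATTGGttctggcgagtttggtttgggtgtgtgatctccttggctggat
H2-Eb1, chr17:34305707-34305866, plus strand: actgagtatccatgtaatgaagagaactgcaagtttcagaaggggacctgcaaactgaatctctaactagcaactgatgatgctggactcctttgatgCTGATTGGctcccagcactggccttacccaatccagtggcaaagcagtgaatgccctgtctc
The box starts 51 bases before the start site in H2-Aa and 62 in H2-Eb1, on the strand of the gene in both. MHC class I genes, which show antigen to CD8+ T cells, were lower in DB at 21 weeks by less. B2m, the shared light chain, was at 2679, 2130.3, 2335 and 1022 CPM and H2-K1 at 1073, 944, 975 and 381 CPM. Tapbp, which holds class I molecules at the peptide transporter, was at 243, 243, 248 and 57.3 CPM. Of the 11 class I genes 7 met the limits and 4 were at least 2-fold lower in DB (median -1.19, all genes 0.01), and none was past 2-fold at 12 weeks (median -0.33, all genes 0.06).

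**Figure D4:**
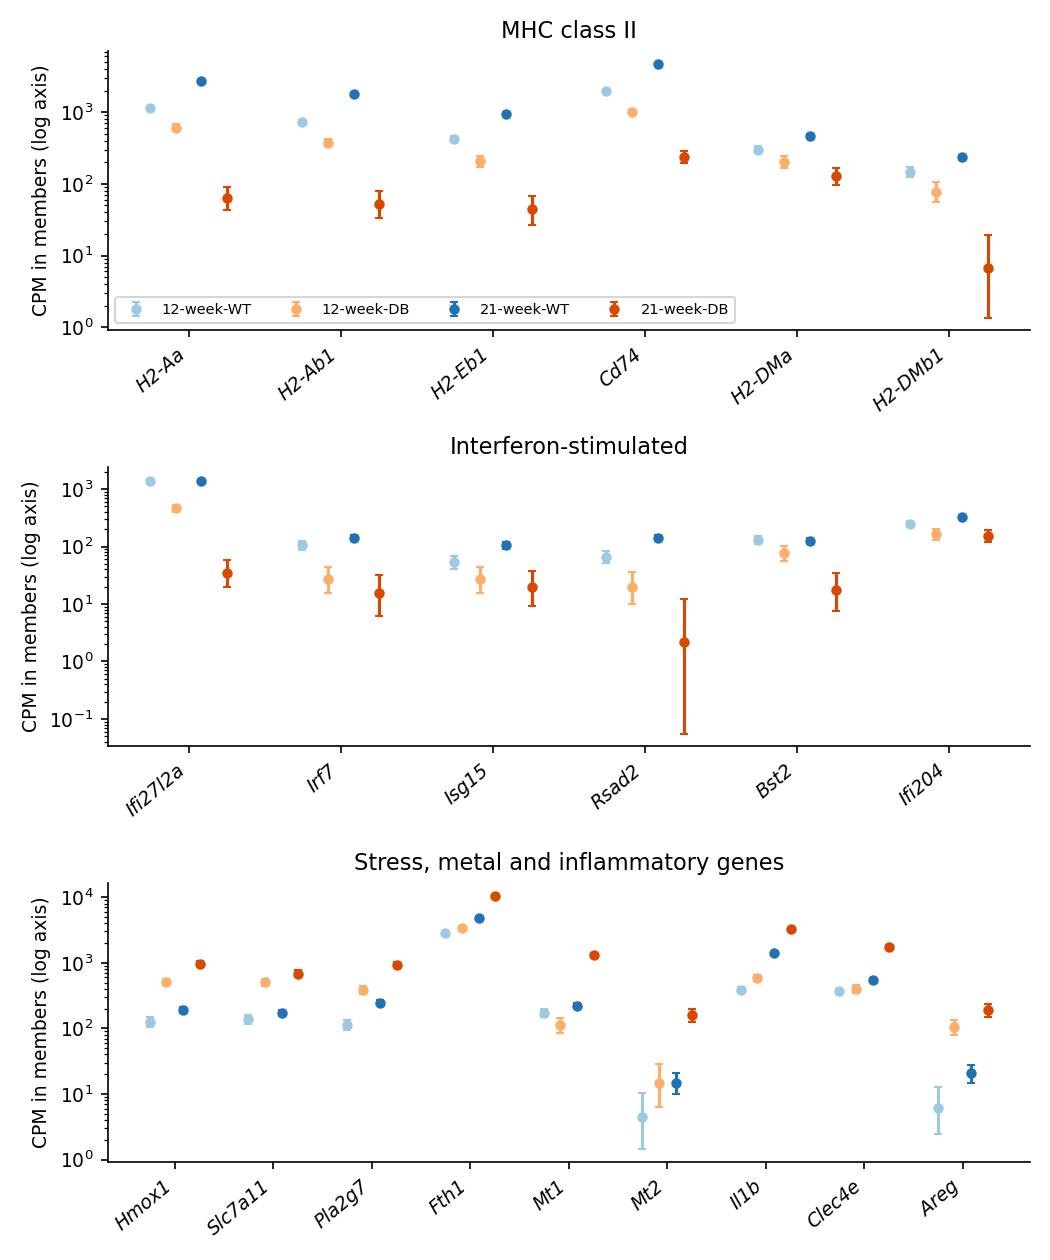
Levels in the members of each library, in CPM on log axes, of class II genes (top), interferon-stimulated genes (middle) and stress, metal and inflammatory genes (bottom); points are sums over members and bars exact 95% Poisson intervals. In the top and middle panels 21-week-DB is the lowest library for each gene, and in the bottom panel it is the highest.

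Hmox1, Slc7a11 and Pla2g7 were higher in the DB members at both ages. They stood in no gene list and are described because they were among the genes past 2-fold at both ages, so they were chosen after their values were seen. Hmox1 (chr8:75093621-75100589), the enzyme that breaks down heme, was at 125, 509.9, 191 and 973 CPM. The DB libraries were high and the WT libraries low, with log2 ratios of 2.03 (95% interval 1.73 to 2.33) and 2.35 (95% interval 2.15 to 2.55). Slc7a11, which imports cystine for glutathione, was at 139, 501, 170.1 and 683 CPM, with ratios of 1.85 (95% interval 1.56 to 2.14) and 2.00 (95% interval 1.78 to 2.23). Pla2g7, a secreted lipase that removes platelet-activating factor, was at 112, 385, 245 and 938 CPM, with ratios of 1.78 and 1.93. These 3 genes showed the same order of libraries. Srxn1, which restores oxidised peroxiredoxins, was at 7.04, 21.8, 12.6 and 123 CPM, but 55.4% of its UMIs in 21-week-DB lay in 1 member, and without the highest member of each library the 21-week ratio was 2.26 in place of 3.29. Fth1, the ferritin heavy chain that stores iron, was at 2831, 3382, 4807 and 10402 CPM, higher at 21 weeks and highest in DB. In the C1q-high macrophages Hmox1 was at 243, 224, 180.1 and 836 CPM, with a ratio of -0.118 at 12 weeks and 2.21 at 21 weeks, so the macrophages showed a difference of this size at 21 weeks. Whether the 2 populations differed was not tested. Slc7a11 in those macrophages was at 10.9, 8.56, 24.9 and 33.6 CPM.

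Metallothioneins, which bind zinc and copper, were highest in 21-week-DB. Mt1 was at 171, 113, 221 and 1310.4 CPM and Mt2 at 4.4, 14.5, 14.5 and 159 CPM. The log2 ratio of DB over WT of Mt1 was -0.60 (95% interval -1.04 to -0.18) at 12 weeks and 2.57 (95% interval 2.39 to 2.75) at 21 weeks. 1 member held 55.6% of the Mt2 UMIs of 21-week-DB, and the 21-week ratio without the highest members was 2.62 for Mt2 and 2.16 for Mt1. Tsc22d3, a gene induced by glucocorticoids, was at 84.4, 156, 108 and 269 CPM. Fkbp5, another such gene, was at 11.4, 30.8, 9.81 and 99.1 CPM and did not reach the limit of 100 CPM. Of the 10 genes of this list 5 met the limits at 21 weeks and 3 (Mt1, Mt2 and Tsc22d3) were at least 2-fold higher in DB, with a median of 1.32, while none of 4 was past 2-fold at 12 weeks. Mt1 had a 12-week ratio of -1.32, past 2-fold, with no condition on Plac8, and the 21-week ratio of Tsc22d3 was then 0.89, under it. Mt1 had a 21-week ratio of 2.61 in C1q-high macrophages, 2.13 in type 2 dendritic cells and 2.22 in T cells, so all 4 populations of 21-week-DB had more Mt1 than those of 21-week-WT.

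Among the inflammatory genes, 6 of the 11 that met the limits were at least 2-fold higher in DB at 21 weeks, and 2 of these stayed so without the highest members. Il1b, the cytokine interleukin 1 beta, was at 383, 593, 1432 and 3235 CPM. It was highest in 21-week-DB, while at 12 weeks the log2 ratio of DB over WT was 0.63, within 2-fold, and 0.33 without the highest members. Cxcl2, which draws neutrophils, was at 1457, 2551, 1420.3 and 3914 CPM, and Il6 at 36.9, 81.7, 23.8 and 115 CPM. Of the 16 genes of the list 11 met the limits at 21 weeks, of which 6 were at least 2-fold higher in DB and 1 lower (median 1.01, all genes 0.01). Tnf and Ptgs2 had ratios of 0.50 and 0.64. Those higher were Il1b, Il6, Cxcl2, Ccl3, Ccl4 and Nlrp3, and several were near the limit. Without the highest member of each library Il1b had a ratio of 0.99, Ccl3 of 0.80, Ccl4 of 0.65 and Nlrp3 of 0.78, under 2-fold, while Cxcl2 and Il6 had 1.33 and 1.69. Ccl2, the ligand of Ccr2, was the gene that was lower, at 208, 65.3, 284 and 57.3 CPM, with ratios of -1.67 (95% interval -2.22 to -1.16) and -2.31 (95% interval -2.93 to -1.74). C1q-high macrophages had Ccl2 at 312, 175, 417 and 477 CPM, without a lower level in 21-week-DB. With no condition on Plac8 the ratios of Ccl2 were -0.96 and 0.34, and that of Il1b at 21 weeks was 0.66, while Il6 had 0.91 at 21 weeks with no condition on Ly6c2, Chil3 and Thbs1. At 12 weeks 2 of 11 list genes, Ptgs2 and Cxcl1, were at least 2-fold higher in DB and Ccl2 was lower. Ptgs2, the prostaglandin synthase COX-2, was at 228, 744, 513 and 797 CPM. For Cxcl1 the ratio of 1.15 turned to -0.64 without the highest members. Among the receptors for microbial products, Clec4e (Mincle) was at 367, 403, 548 and 1722 CPM and Clec4d, its partner, at 107, 229, 119.6 and 363 CPM. Clec4d was past 2-fold at both ages, with ratios of 1.09 and 1.60. The toll-like receptor gene Tlr2 was at 290.2, 308, 297 and 306 CPM, a narrow range. Of the 12 pattern recognition genes in the files 5 met the limits at 21 weeks and 3 (Clec4d, Clec4e and Msr1) were higher (median 1.06).

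The largest DB over WT ratios belonged partly to single cells. At 12 weeks the 5 genes highest in DB by the rule for named genes were Cstdc5, Ctla2a, Cxcl9, Areg and Cd36. Cstdc5 had 5 UMIs in 12-week-WT and 156 in 12-week-DB, 59% of the latter in 1 member. Without the members high in granulocyte genes it had 0 in both. Cxcl9, an interferon-gamma-induced chemokine, had 0, 61, 0 and 1 UMIs, a ratio of at least 42-fold by the floor of 3 counts, but 98.4% of them lay in 1 member. Ctla2a, a protease inhibitor, had 65.7% in 1 member, and its log2 ratio of 5.66 became 0.31 once doublets called by Scrublet were left out. Areg, an epidermal growth factor receptor ligand of tissue repair, was at 6.16, 103, 20.6 and 189 CPM, with ratios of 4.07 (95% interval 2.94 to 5.45) and 3.20 (95% interval 2.66 to 3.76), and 3.90 and 2.98 without the highest members. Cd36, a scavenger receptor for lipids, was at 22.9, 123, 73.4 and 94.7 CPM, with a 12-week ratio of 2.43 (95% interval 1.76 to 3.14) and of 2.84 with such RNA subtracted and the member with most mast cell UMIs left out. With that member kept, the subtraction left no Cd36 UMI in either 12-week library. The 5 lowest in DB were Elane, Ctsg, Mpo, Ube2c and Ccl17. The granule protease genes Elane and Ctsg and the peroxidase gene Mpo had 652, 314 and 982 UMIs in 12-week-WT, almost all in members that stood apart by granulocyte genes, and 2, 1 and 6 in 12-week-DB. For the chemokine gene Ccl17, 1 member held 92.1% of the UMIs of 12-week-WT.

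At 21 weeks the 5 highest in DB were Saa3, Mt2, Srxn1, Areg and Slpi. Saa3, an acute phase protein, was at 3.52, 1.81, 16.8 and 324 CPM, with a ratio of 4.27 (95% interval 3.73 to 4.83) and of 4.82 without the highest members. Slpi, a secreted inhibitor of neutrophil elastase, was at 282, 572, 144 and 1117 CPM, with a ratio of 2.96 (95% interval 2.75 to 3.16). Fpr2, a receptor for formylated peptides that neutrophils and monocytes share, was at 75.6, 181, 37.4 and 240.1 CPM. These genes were each highest in 21-week-DB. The 5 lowest in DB were Camp, Ngp, Rsad2, Mrc1 and H2-Aa. Camp and Ngp had no UMI in 21-week-DB, ratios of at least 364-fold and 212-fold against the floor of 3 counts, but without the 28 members high in granulocyte genes 21-week-WT held 6 and 1 UMIs of them, and no fold is given. Mrc1, the mannose receptor of tissue macrophages, was at 76.5, 29, 124 and 2.2 CPM with 1 UMI in 21-week-DB, a log2 ratio of -5.82 (95% interval -11.13 to -3.33). The lower level of Mrc1 stood beside that of Cd209a and Mgl2, genes of type 2 dendritic cells, which had no UMI in 21-week-DB. Cd209a was at 94.1, 10.9, 51.9 and 0 CPM. S100a8 and S100a9 had 21-week ratios of -1.29 and -4.86 with all members. Members high in granulocyte genes had been chosen in part by these 2 genes, so no ratio is drawn without them. The remaining members held 568 UMIs of S100a8 in 21-week-DB against 32 in 21-week-WT, and 49 against 50 of S100a9.

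Among the genes of classical monocytes, the DB members of 21 weeks had more of several and less of others. Vcan, the matrix proteoglycan versican, was at 87.1, 176, 241 and 976 CPM, with ratios of 1.02 (95% interval 0.60 to 1.43) and 2.02 (95% interval 1.83 to 2.21). Hp, haptoglobin, which binds free hemoglobin, was at 387, 573, 296 and 1019.7 CPM, and F13a1, a subunit of coagulation factor XIII, at 616, 813, 501 and 1101 CPM. Both were highest in 21-week-DB. Ms4a4c, a tetraspan membrane protein, was at 293, 136, 330.0 and 85.9 CPM and was lower in DB at both ages (-1.11 and -1.94). Of 11 list genes outside the rule, all met the limits, and 1 was higher and 1 lower at 12 weeks, and 3 and 1 at 21 weeks (medians 0.51 and 0.82, all genes 0.06 and 0.01). Of 9 non-classical genes at 12 weeks, 3 (Ace, Ear2 and Hes1) were at least 2-fold higher in DB, the other 6 lay between 0.00 and 0.97, and the median was 0.85. Those 3 had, with no condition on Ly6c2, Chil3 and Thbs1, ratios of 0.59, 0.64 and 0.85, under 2-fold. Of the list, none of 5 was past 2-fold at 21 weeks. Among the integrins of entry, Itgam was at 289, 334, 266 and 366 CPM and Itgb2 at 219, 259, 182 and 172 CPM, with no library pair of an age 2-fold apart. In glycolysis none of 8 genes at 12 weeks and none of 8 at 21 weeks was past 2-fold (median -0.06 at 12 weeks). Among coagulation and complement genes 3 of 5 were higher in DB at 21 weeks, F10, F13a1 and C5ar1, the last being the receptor for the complement fragment C5a. Of all genes compared at 21 weeks, 4.48% were at least 2-fold higher in DB and 5.56% lower. None of 6 NF-kB feedback genes was past 2-fold at 12 weeks and 1 of 7, Tnip1, was at 21 weeks.

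Transcription factors of the monocyte and macrophage lineage were mostly within 2-fold, as were the compared genes as a whole. Of those, 2.31% were higher and 2.24% lower in DB at 12 weeks, and 4.48% and 5.56% at 21 weeks. Spi1, which encodes the lineage factor PU.1, was at 368, 446, 381 and 425 CPM, and Nr4a1, on which non-classical monocytes depend, at 693, 742, 584 and 612 CPM. Irf8, which guides monocyte and dendritic cell progenitors, was at 276, 192, 257 and 106 CPM, with log2 ratios of -0.52 (95% interval -0.85 to -0.20) and -1.28 (95% interval -1.74 to -0.85). It was lower in DB at each age and lowest in 21-week-DB. Of the 14 genes 10 met the limits at 12 weeks with none past 2-fold, and 11 at 21 weeks, of which Cebpd was at least 2-fold higher in DB and Irf8 and Bhlhe40 lower (medians 0.04 and 0.05). Cebpd, a stress-induced factor, had a ratio of 1.02 and 0.79 without the highest members. In lipid handling, 1 of 7 genes (Cd36) was higher in DB at 12 weeks and 1 of 4 (Apoe) at 21 weeks, with medians of 0.57 and 0.60. The call of Cd36 was lost with ambient RNA subtracted at shares that single members mostly set, as no UMI was left in either 12-week library. Vegfa, the vessel growth factor, was at 73.9, 72.6, 149 and 33 CPM and Mrc1 was lower too, which made 2 of 4 repair genes lower in DB at 21 weeks. None of 3 Fc receptor genes and none of 7 genes of egress and survival was past 2-fold at that age. Lyz1 alone of 8 oxidative burst and lysozyme genes was past 2-fold, higher in DB at 12 weeks (1.29) and lower at 21 weeks (-1.10). Single members held 58.7%, 70.8%, 45.2% and 54.1% of its UMIs, and without them the ratios were 0.80 and -1.35. In MHCII-low members the ratios were -0.45 and 0.29, so its direction turned at both ages. The 21-week ratio with no condition on Plac8 was 0.45.

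Age was compared within each genotype. In WT 37 of 1542 genes (2.40%) were at least 2-fold higher at 21 than at 12 weeks and 42 (2.72%) lower. In DB 55 of 1591 (3.46%) were higher and 115 (7.23%) lower. Scaling by TMM, which trims extreme genes, moved all log2 ratios by 0.17 in WT and 0.21 in DB, and the DB split was then 103 higher and 59 lower and the WT split 57 higher. The split between higher and lower genes with age therefore turns with the scaling. The file headers name another version of the counting software for the 21-week than for the 12-week libraries, so software and age cannot be told apart either. Genes past 2-fold in both genotypes were 11 higher (29.7% of those in WT and 20% of those in DB) and 13 lower (31% and 11.3%). Il1b was among the higher, with log2 ratios of 1.90 (95% interval 1.76 to 2.05) in WT and 2.45 (95% interval 2.27 to 2.62) in DB, as were Il1rn, its natural antagonist (1.19 and 2.82), Vcan, Pla2g7, Hif1a, the oxygen-regulated transcription factor, Rgs1, Runx3, Sdc4, Stap1, Mefv and the chaperone gene Hsph1. All 11 stayed past 2-fold without the highest members, and 9 of them (not Hif1a and Pla2g7) without the members high in granulocyte genes. With no condition on Ly6c2, Chil3 and Thbs1 6 stayed, and without that on Plac8 4 did (Il1b, Il1rn, Mefv and Vcan). The 13 lower genes included S100a8, S100a9, Retnlg, Ltf and Mmp9 of neutrophils, and without the members high in granulocyte genes 3 of them, Cxcl1, Mcpt2 and Slc38a2, stayed past 2-fold. S100a8 and S100a9 were among the genes that chose those members. Mcpt2, a mast cell protease, lay mostly in 1 member of each 12-week library (holding 89.4% and 90.1% of its UMIs). Several of these were chosen after their values were seen.

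By the rule for named genes, the 5 genes highest at 21 weeks in WT were Lgmn, Lyz1, Runx3, Basp1 and Il1b. Lgmn, a lysosomal protease that processes antigen, was at 73, 138, 330.4 and 152 CPM, with a ratio of 2.18 (95% interval 1.85 to 2.52). Lyz1, a lysozyme whose close copy Lyz2 makes its count uncertain, was at 66, 161, 287 and 134 CPM, and 45.2% of its UMIs in 21-week-WT lay in 1 member. Runx3, a transcription factor, was at 36.9, 49, 143 and 101 CPM. The 5 lowest were Ctsg, Mpo, Ccl17, Mmp9 and Ms4a3, most of whose UMIs in 12-week-WT lay in members high in granulocyte genes or, for Ccl17, in 1 member. In DB the 5 highest were Saa3, Mt1, Mt2, Il1rn and Srxn1, with ratios of 7.48, 3.54, 3.45, 2.82 and 2.5. Saa3 had 1 UMI in 12-week-DB and its ratio an interval of 4.98 to 12.79. The 5 lowest were Camp, Ngp, Retnlg, G0s2 and Mmp9, most of whose UMIs in 12-week-DB lay in members high in granulocyte genes. Retnlg, G0s2 and Mmp9 are genes of mature neutrophils. Class II genes differed with age in opposite directions, and H2-Ab1 had ratios of 1.33 (95% interval 1.22 to 1.44) in WT and -2.82 (95% interval -3.49 to -2.20) in DB. All 4 class II genes past 2-fold in WT were higher, of 6 that met the limits, and 4 of 5 in DB were past 2-fold, all lower. With RNA of the whole library subtracted and the member with most mast cell UMIs left out, the ratios of H2-Ab1 were 1.43 and -2.83. Without the condition on Ly6c2, Chil3 and Thbs1 they were 0.78 and -1.31, and without that on Plac8 0.91 and -0.78, so the directions stayed, but in the latter setting neither was past 2-fold. In MHCII-low members they were 0.58 and -2.07, but H2-Ab1 itself had chosen those members, so these values check nothing. Early response and heat shock genes were higher with age in DB for 5 of 13 (Jun, Jund, Atf3, Hspa1a and Hspa1b, median 0.80, all genes -0.09), with Egr1 lower, and none was past 2-fold in WT. Jun alone of these 5 stayed past 2-fold with no condition on Plac8. Hspa1a, a heat-induced chaperone, was at 2746, 1918, 3773 and 4479.6 CPM and is known to respond to warm digestion, whose part in these levels was not tested.

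Members were then divided by their own class II. A member was called MHCII-high where the natural log of 1 plus its H2-Ab1 UMIs per 10000 was at least 2. This held for 16 of 105 members in 12-week-WT, or 15.2% (95% interval 8.97 to 23.6%), and for 7 of 68 in 12-week-DB, or 10.3% (4.24 to 20.1%). In 21-week-WT it held for 79 of 213, or 37.1% (30.6 to 44%), and in 21-week-DB for 1 of 49, or 2.04% (0.0517 to 10.9%). The interval of 21-week-WT lies above those of the other 3 libraries, and the 12-week libraries overlap. T cells above the same threshold were 10.1%, 7.65%, 10.9% and 1.91%, at median depths of 6268, 5499, 6933 and 5420.0 UMIs. C1q-high macrophages above it were 35%, 36.4%, 51% and 13.3%, like the members highest in 21-week-WT and lowest in 21-week-DB. The T cell share, from a type that should hold little of this gene, lay inside the members' interval in every library but 21-week-WT. The threshold cuts a range of levels, and 12, 1, 31 and 0 members lay within 0.5 of the threshold.

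**Figure D5:**
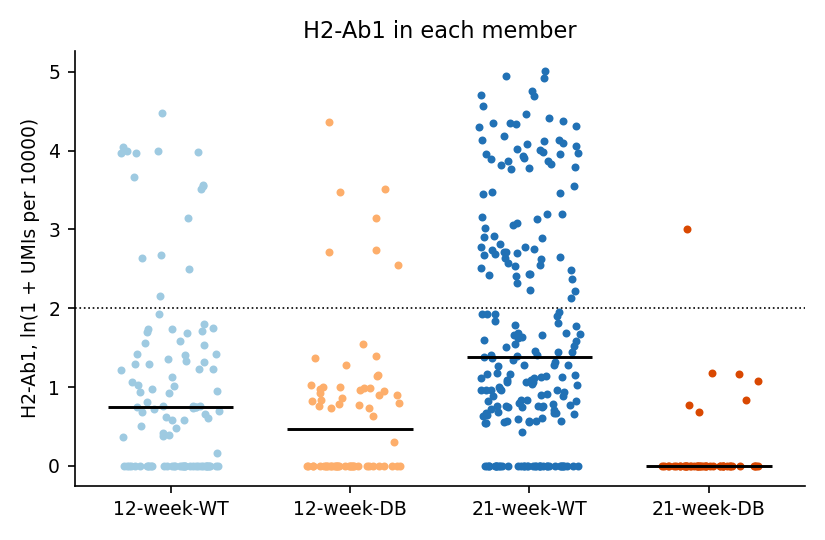
H2-Ab1 in each member, as the natural log of 1 plus UMIs per 10000 (vertical axis), by library; each point is 1 member, spread sideways for display, black bars are medians and the dotted line is the threshold of 2. In 21-week-WT 79 members lie above the line and in 21-week-DB 1 does.

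What MHCII-high members share could be described in 12-week-WT and 21-week-WT, the libraries with at least 10 members on each side. A test across libraries had been set to need 3 such libraries and was not made. Genes that met the limits in both numbered 1378, of which 28 (2.03%) were at least 2-fold higher and 34 (2.47%) at least 2-fold lower in MHCII-high members of both. H2-Aa, H2-Eb1, Cd74, H2-DMa and H2-DMb1 were among the higher, as members had been divided by a gene of the same group. Outside it, Mrc1 was at 278 against 37.7 CPM in 12-week-WT (MHCII-high against MHCII-low) and 238 against 60.6 CPM in 21-week-WT. Clec10a, a lectin of macrophages and type 2 dendritic cells, was at 174 against 33.6 CPM and 108 against 27.7 CPM. Lmna, a nuclear lamin, was at 333 against 45.1 CPM and 486 against 205 CPM, and Zfp36l1, an RNA-binding repressor, at 262 against 83.9 CPM and 692 against 175 CPM. Lower in MHCII-high members were Hp, at 32.7 against 455 CPM and 76.7 against 419 CPM, and Cd177, which is known on neutrophils and a subset of monocytes, at 10.9 against 206 CPM and 29.9 against 176 CPM. F13a1 was in the same group. The granule genes Camp, Ngp, Ltf, Wfdc21 and Lcn2 were lower too, and Camp, for example, had 5138 UMIs in MHCII-low and 2 in MHCII-high members of 21-week-WT. Few cells carried this. The members high in granulocyte genes (15 in 12-week-WT and 7 in 21-week-WT) held 99.9% of the Camp UMIs in each of these libraries. They held 97.5% and 99.5% of those of Lcn2. Genes of other cell types moved with the division too. The cytotoxic lymphocyte genes Gzma and Ccl5 had 37 against 0 and 35 against 0 UMIs in MHCII-high against MHCII-low members of 12-week-WT and 24 against 1 and 28 against 3 in 21-week-WT. Of the UMIs of the natural killer list, which holds both genes, 1 member held 63.5% in 12-week-WT and 1 held 75.3% in 21-week-WT. The mast cell proteases Mcpt2 and Cma1 had 133 against 8 and 56 against 12 UMIs in 12-week-WT, where 1 member held 85.1% of all UMIs of 4 mast cell genes. In 21-week-WT Siglech and Ccr9, known in plasmacytoid dendritic cells, had 34 against 5 and 41 against 2. The part of such RNA in the division was not tested. By member, the median sum of 6 classical monocyte genes was 21 UMIs in MHCII-high and 52 in MHCII-low cells of 12-week-WT and 22 and 46.5 in those of 21-week-WT. The median sum of 6 type 2 dendritic cell genes was 2 and 1, and 1 and 0. Genes of the full classical list did not all follow the lower sum of the 6. S100a4 was higher in MHCII-high members, at 3424 against 2177 CPM in 12-week-WT and 3631 against 2995 CPM in 21-week-WT. Ccr2, Ms4a4c and Clec4a3 differed in direction between these libraries, and the rest of the list was lower in both.

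Some members of every library carried non-classical genes, though other genes known for non-classical monocytes did not all follow. At least 2 UMIs over Ace, Treml4 and Ear2 were present in 21, 19, 24 and 12 members, which is 20%, 27.9%, 11.3% and 24.5%, with intervals of 12.8 to 28.9%, 17.7 to 40.1%, 7.35 to 16.3% and 13.3 to 38.9%. These intervals overlap within each age for WT and DB. This division was chosen after the values were seen and carries no test. Their median depth was 9267, 6809, 9324 and 8131 UMIs, against 9000.5, 7474, 9599 and 8971 in the rest. Hes1, a target of Notch signalling, was at 322 against 19.8, 823 against 47.8, 691 against 36.3 and 508 against 31.6 CPM in these members against the rest. Adgre4, an adhesion receptor, was at 145 against 28.6, 317 against 33.4, 204 against 36.9 and 122 against 8.63 CPM, and Itgal, the integrin chain of patrolling, at 498 against 186, 778 against 260.4, 607 against 118 and 404 against 161 CPM. All 3 were higher in these members in each of the 4 libraries, as was Gngt2. Ly6c2, which non-classical monocytes hold less of, was at 2265 against 1658, 574 against 841, 478 against 955 and 235 against 518 CPM, and Ccr2 at 1234 against 936, 574 against 998, 711 against 969 and 433 against 725 CPM, both higher in these members of 12-week-WT and lower in those of the other libraries. Nr4a1 was higher in them in 3 libraries and at 592 against 618 CPM in 21-week-DB, where Spn had 0 UMIs in them and 8 in the rest. Fn1 (fibronectin) and Ms4a4c, of the classical list, were lower in them in all 4.

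Lastly, members were set beside the C1q-high macrophages (1555, 1644, 1479 and 1356 cells) and the neutrophils (88, 72, 112 and 40) of the same libraries. The rule divides these populations by their own genes, so the comparison is a description. Of the genes at 100 CPM or more in the members of every library, those with the largest ratio over macrophages in their lowest library included Hp, Cd177, Lcn2, Gm9733, Wfdc21, Slpi, Ifitm6, Mcemp1, C3, Sorl1, S100a8, Gsr, Itgal and Gpr141. Hp was at 1.22, 2.5, 1.93 and 8.05 CPM in macrophages. Of the 15 genes, 12 were also among the largest without the 28 members high in granulocyte genes, at 329, 544, 275 and 992 CPM of Hp, for example. The other 3 were Lcn2, Wfdc21 and S100a8, which then fell under 100 CPM in 3, 3 and 2 libraries. Of S100a8, 98.8%, 98.9%, 99.7% and 29.4% of the UMIs lay in the 28, and without them it was at 144, 92.7, 15.7 and 1284 CPM against 108, 56, 32.8 and 166 CPM in macrophages. The 28 had been chosen partly by S100a8, so no ratio is drawn from these levels. Gsr, which reduces oxidised glutathione, was at 515, 680.5, 344 and 868 CPM in members and 41.9, 55.8, 32.6 and 83.6 CPM in macrophages, higher in the DB library at each age in both. Over neutrophils, the genes included F13a1, Ms4a6c, Ms4a6b, Ly86, Ctsc, Pld4, Pou2f2, Smpdl3a and Apoe. F13a1 was at 21.4, 24.2, 23.6 and 15.8 CPM in neutrophils. Apoe, which carries lipids and is abundant in macrophages, was at 919.9, 1414, 1289 and 2896 CPM in members and 3559, 3449, 2543 and 11439 CPM in C1q-high macrophages, highest in 21-week-DB in both.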

How the data were processed

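The authors deposited 1 count matrix per library, with UMI counts per gene and cell barcode aligned to the mouse genome mm10. The study's methods name 1 version of the counting software, Cell Ranger, and the submitters' processing notes give 5.0.0, while the file headers give 5.0.0 for both 12-week and 6.0.0 for both 21-week libraries. The authors' removal of ambient RNA and doublets was not repeated. Counts were taken raw (scanpy 1.11.5, numpy 2.4.6), summed over members of a library and divided by their total. A gene was compared with at least 50 UMIs over both libraries and 100 CPM in the higher one. A sum of 0 was set at a floor of 3 counts.

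Doublets were scored with Scrublet, whose own threshold marked 1.04%, 1.13%, 0% and 0.0230% of barcodes and so did not work in the 21-week libraries. The highest scores, at 0.8% per 1000 barcodes, were left out only as an alternative. C1q-high macrophages had at least 10 UMIs over C1qa, C1qb and C1qc. Type 2 dendritic cells had at least 30 over H2-Aa, H2-Ab1 and H2-Eb1 and at least 2 over Clec10a, Cd209a and Flt3. T cells had Cd3e, and neutrophils had at least 20 UMIs over S100a8 and S100a9 and at least 2 over Retnlg, Csf3r and Cxcr2 and were not members. Named genes were the 5 largest rises and 5 largest falls of each contrast, the genes of the lists, the 15 with the largest ratio to macrophages and the 10 to neutrophils. TMM factors came from edgeR 4.0.16. The members and gene lists were chosen with earlier results of these data known. Scripts were tested on simulated counts. A few genes are not reported here.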

Additional observations from a re-analysis of the deposited data

Results flagged for a closer look

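Genes whose difference pointed past 2-fold in opposite directions in separate pairs of libraries are given here as values, and the difference between the pairs was not tested. Lyz1 had a log2 ratio of DB over WT of 1.29 at 12 weeks and of -1.1 at 21 weeks. Single members held 58.7% (WT) and 70.8% (DB) of its UMIs at 12 weeks and 45.2% and 54.1% at 21 weeks, and without them the ratios were 0.80 and -1.35, so the 12-week one was no longer past 2-fold. In MHCII-low members they were -0.45 and 0.29, and the direction turned at both ages. H2-Ab1 had a log2 ratio of 21 over 12 weeks of 1.33 in WT and of -2.82 in DB. The ratios of H2-Aa were 1.24 in WT and -3.25 in DB, those of H2-Eb1 were 1.17 and -2.23, and those of Cd74 were 1.25 and -2.1. When the rule had no condition on Plac8, the ratios of H2-Ab1 were 0.91 and -0.78, those of H2-Aa 0.93 and -0.65, those of H2-Eb1 0.83 and -0.66 and those of Cd74 0.95 and -0.41, none of them past 2-fold. With none on Ly6c2, Chil3 and Thbs1 those of H2-Ab1 were 0.78 and -1.31. Among MHCII-low members, which were chosen by H2-Ab1, they were 0.58 and -2.07, so these values check nothing. With ambient RNA subtracted at a share that 1 member of 12-week-DB set almost alone, the 4 ratios in DB took the other sign (2.70 for H2-Ab1). With the member that held most mast cell UMIs left out of each library they were -2.83 for H2-Ab1, -3.44 for H2-Aa, -2.28 for H2-Eb1 and -2.13 for Cd74. Lmna, a nuclear lamin, had ratios of 1.74 in WT and -1.01 in DB, the latter from 36 and 88 UMIs, and it was -0.95 without the members high in granulocyte genes and -1.11 with ambient RNA subtracted and that member left out. The ratio of Lmna in DB was 0.02 with no condition on Plac8. Tppp3, a tubulin-binding protein, had ratios of 1.03 in WT and -2.42 in DB, which were 0.75 and -2.45 without the members high in granulocyte genes. The WT ratio of Tppp3 was 0.49 with no condition on Ly6c2, Chil3 and Thbs1.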

How the results depend on the processing

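Each condition was 1 library of pooled mice, so no alternative speaks to the spread between mice, and shares rest on 49 to 213 members. No paired analysis was possible because each condition had 1 library and the labels give no replicate numbers to pair them by. The edgeR test of MHCII-high against MHCII-low members was set to need 3 libraries with at least 10 members on each side, and 2 had them, so that test and its alternatives (RLE factors, DESeq2, no library block, each library left out) were not run.

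The share of members in DB over WT stayed below 1 at both ages in every alternative. With barcodes thinned to 2000 UMIs it was 0.1207 at 21 weeks, and the ratios of 21 over 12 weeks were 1.067 in WT and 0.3067 in DB. Of the genes on which the rule sets thresholds, Plac8 and Ly6c2 were lower and Chil3 and Thbs1 higher in DB. These shares therefore do not measure how many such cells the tissue held. Counts of genes past 2-fold moved most without the CPM minimum, to 99 higher and 131 lower in DB over WT at 12 weeks, 165 and 475 at 21 weeks, 139 and 221 with age in WT, and 206 lower with age in DB. With ambient RNA subtracted, at 11%, 24.4%, 0.970% and 0.859% of UMIs, the 12-week counts of DB over WT were 74 higher and 66 lower. These shares were set by mast cell UMIs, of which 1 member held 85.1% (WT) and 94.4% (DB) at 12 weeks, so the 12-week shares do not measure free RNA. With that member left out of each library, 1.64%, 1.38%, 0.853% and 0.713% were subtracted and the counts were 41 and 36. Without the condition on Ly6c2, Chil3 and Thbs1 they were 24 higher at 12 weeks, and 15 higher with age in WT. In MHCII-low members alone 23 were higher with age in WT. Under TMM scaling 57 were higher with age in WT, and in DB 103 were higher and 59 lower. Without the condition on Plac8, 62 were lower with age in DB. Without the members high in granulocyte genes, 16 were lower with age in WT. Several of these alternatives, on members high in granulocyte genes, on the conditions of the rule, on single members and on mast cell UMIs, were chosen after seeing the data.

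The MHCII-high share was 25.71% in 12-week-WT and 46.95% in 21-week-WT at an H2-Ab1 threshold of 1.5. Without the condition on Ly6c2, Chil3 and Thbs1 it was 27.27% in 12-week-WT, 21.11% in 12-week-DB and 44.9% in 21-week-WT, and without that on Plac8 24.26%, 22.06% and 46.39%. In 21-week-DB, at 2.04% with all conditions, it was 5.56% and 10.48%. Between MHCII-high and MHCII-low members, 18 genes were higher and 22 lower at a threshold of 1.5, and 66 lower without the CPM minimum. For the genes named by the rule on size, 40 pairs of a gene and a contrast gave 508 values under alternatives, of which none turned and 504 stayed at least 2-fold. The 4 others were Ctla2a (0.31 with Scrublet doublets left out), Ccl17 (-0.51) and Lyz1 (0.63) in MHCII-low members, and Basp1 (0.88 without the condition on Plac8), and no fold could be given for 12 more. These pairs were chosen for their size. Of the 229 pairs past 2-fold over the lists and named genes, 6 turned without the members high in granulocyte genes and 3 in MHCII-low members. With Scrublet doublets left out 2 turned, without the highest members 1 did, and under TMM scaling none did. With ambient RNA subtracted 7 turned, and 1 did with the member with most mast cell UMIs left out. The cause of these moves was not tested.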
